A study of Mus musculus with 22 samples.

Results

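Cassette exons of 5 genes of DNA repair and the cell cycle, Usp1, Ddias, Trp53bp1, Depdc1a and Ccnb1, were examined in mouse embryonic stem (ES) cells. A cassette exon can be included in the mature transcript or skipped, and its event is the exon with the 2 exons that flank it. Every deposited event whose span lay inside the mm10 span of one of the 5 genes was taken, which gave 13 of the 10873 events listed in any library. Usp1 and Ccnb1 had 2 exons each, Ddias and Depdc1a 1 each and Trp53bp1 7. Of the 13 exons 10 were listed in all 7 libraries. The genes were chosen because differences of their exons in these libraries were already known, so the values of the exons are given as a description.

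The cells were TKO ES cells, a triple knockout of the DNA methyltransferase genes Dnmt1, Dnmt3a and Dnmt3b, and the R1 ES cell line as wild type (WT). Heterochromatin protein 1 (HP1) was depleted with siRNA for 48 h. TKO cells received siRNAs against HP1alpha, HP1beta and HP1gamma together at 80, 80 and 120 nM, and WT cells received all 3 at 60 nM each or a single one at 90 nM. Untransfected TKO and WT cells were sequenced for comparison. The 2 replicates of a group were pooled by the authors before deposit, so 1 library stood for each group and there was no replicate measurement. Every test below therefore compares libraries, not conditions, and intervals cover counting error only. The labels name different sources for the WT and TKO lines, so other differences between the lines cannot be told apart from the loss of the methyltransferases. The labels name no control siRNA. Knock-downs were sequenced as paired 101-base reads and untransfected cells as single 50-base reads, so knock-down, transfection and platform cannot be told apart where a knock-down is set against untransfected cells.

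A cell that meets broken or modified DNA repairs it, delays division or dies. Trp53bp1 encodes 53BP1, which gathers on chromatin at double-strand breaks and favours end joining over resection. Usp1 is a deubiquitinase that removes ubiquitin from the crosslink repair protein FANCD2 and from the replication clamp PCNA. Ddias is named for suppressing apoptosis after DNA damage. Ccnb1 encodes cyclin B1, which activates Cdk1 for entry into mitosis, and Depdc1a encodes a DEP-domain protein whose human counterpart is linked to mitotic progression. A cassette exon whose length is a multiple of 3 nucleotides can be skipped inside a coding sequence without shifting the reading frame.

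Reads counted over all events numbered 7571677 in the TKO triple knock-down, 4677236 in the WT triple knock-down, 7383028 to 9750348 in the 3 single knock-downs, 25200437 in TKO and 25941844 in WT. Each deposited event had at least 100 reads in its library. Event reads of each targeted HP1 gene were 0.322 to 0.633 of its level in the other single knock-downs after a single knock-down. They were 0.35 to 0.71 of that level in the WT triple knock-down and 0.469 to 0.69 in the TKO triple knock-down. The single knock-downs were made in WT cells, so cell line and knock-down cannot be told apart in the TKO ratios. Of 12 ES cell markers 4 had an event (Klf4, Zfp42, Sall4 and Tdh), and these were listed in all 7 libraries at a summed 2109 to 2920 reads per 1000000 event reads (RPM). Of 14 markers of differentiated cells 2 had an event. Sox17 and Pax6 were listed in the TKO triple knock-down and in TKO at a summed 42 and 35.6 RPM, Pax6 alone in WT at 5.32 RPM, and neither in the knock-downs of WT cells. The part of these markers in the differences of TKO cells was not tested.

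Of the 13 exons 8 had a length divisible by 3. The 2 Usp1 exons (chromosome 4, plus strand, 98926436 to 98926674 and 98926455 to 98926674) shared their 3′ end and most of their reads. They were 239 and 220 nucleotides (nt) long, and neither length was a multiple of 3. The Ddias exon (chromosome 7, minus strand, 92868112 to 92868190) had 79 nt, 1 beyond a multiple of 3. The Trp53bp1 exons lay along a 101520-nt gene on the minus strand of chromosome 2. The Trp53bp1 exon of 120 nt (121228588 to 121228707) followed an exon of 1297 nt, and an exon of 150 nt (121208355 to 121208504) lay further downstream. The Depdc1a exon (chromosome 3, plus strand, 159522526 to 159523356) was the longest of the set at 831 nt. The Ccnb1 exons (chromosome 13, minus strand) had 183 nt (100783465 to 100783647) and 111 nt (100780022 to 100780132), and the 111-nt exon preceded an exon of 1047 nt. Which of the exons are coding was not given in the sources used here.

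Deposited for each exon is the inclusion level, the estimated share of transcripts (0 to 1) that include the exon, with an interval whose level is not stated. Beside it stand the reads that fit inclusion alone, skipping alone, both isoforms or neither. A read share is not a transcript share, because the longer inclusion isoform offers more positions to reads, and both are given here. An exon was called when reads for inclusion alone and skipping alone differed between libraries at an adjusted p of at most 0.05 and the deposited level differed by at least 0.1. The p came from two-sided Fisher's exact tests with Benjamini-Hochberg adjustment over all exons with 20 or more such reads in both libraries compared.

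**Figure D1:**
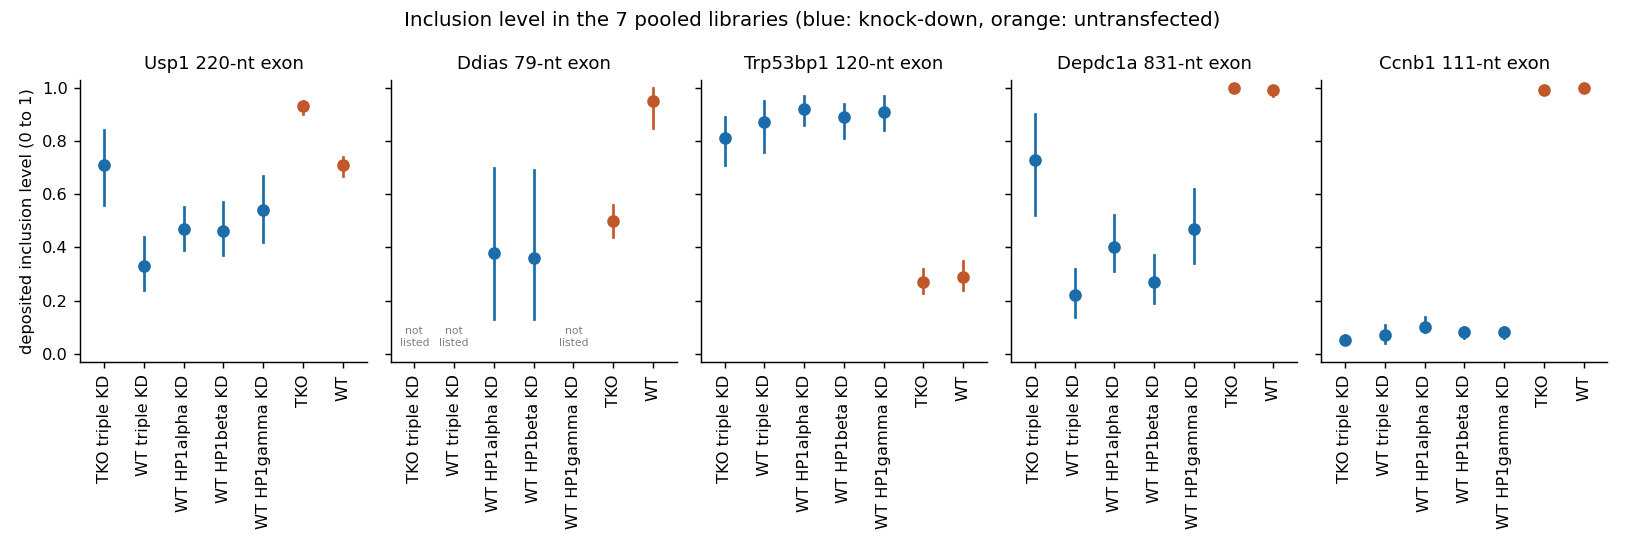
Deposited inclusion level (0 to 1, vertical axis) of 1 exon of each gene in the 7 pooled libraries, with points at the level and lines over the deposited interval; blue marks knock-down and orange untransfected libraries. Usp1, Depdc1a and Ccnb1 stood lower in the WT knock-downs than in untransfected WT cells, Trp53bp1 stood higher, and Ddias was listed in 4 libraries and differed between TKO (0.50) and WT (0.95).

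The 220-nt exon of Usp1 had higher inclusion in TKO cells than in WT cells, both with and without the triple knock-down. It stood at 0.71 (deposited interval 0.56 to 0.84) in the TKO triple knock-down, 0.33 (0.24 to 0.44) in the WT triple knock-down, 0.47, 0.46 and 0.54 in the knock-downs of HP1alpha, HP1beta and HP1gamma, 0.93 (0.90 to 0.95) in TKO and 0.71 (0.67 to 0.74) in WT. Its reads for inclusion and skipping numbered 50 and 6 in the TKO triple knock-down, 41 and 29 in the WT triple knock-down, 584 and 20 in TKO and 674 and 115 in WT. The TKO library was the highest, and the 4 knock-downs of WT cells were the lowest, with intervals below that of untransfected WT cells for HP1alpha (0.39 to 0.55), HP1beta (0.37 to 0.57) and the triple knock-down, and reaching 0.67 for HP1gamma. The difference between TKO and WT was 0.22 in untransfected cells and 0.38 under the triple knock-down, each between libraries of 1 platform. Between the triple knock-down and untransfected cells the level differed by -0.22 in TKO cells, which was not called (adjusted p = 0.081, Fisher's exact test). In WT cells it differed by -0.38, a call lost when exons of like length set the odds ratio taken as no change. Knock-down, transfection and platform cannot be told apart in either difference. Inclusion among distinguishing reads gave the same order within each platform, with 89.3% in the TKO triple knock-down against 58.6% in the WT triple knock-down, and 96.7% in TKO against 85.4% in WT. The overlapping 239-nt exon stood at 0.72 in the TKO triple knock-down and 0.42 in the WT triple knock-down, and at 0.93 in TKO and 0.72 in WT, and it is no independent measurement. Under the triple knock-down its reads did not pass the test between the lines (adjusted p = 0.14, Fisher's exact test).

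The Ddias exon had lower inclusion in TKO cells. It stood at 0.50 (0.44 to 0.56) in TKO, on 148 inclusion and 103 skipping reads, against 0.95 (0.85 to 1.00) in WT, on 110 and 0. The 110 WT reads with none for skipping put the share of inclusion among distinguishing reads at 96.7% or more (exact Clopper-Pearson 95% interval), against 59% (52.6 to 65.1) in TKO. The exon was listed in neither triple knock-down nor in the HP1gamma knock-down, so the difference could not be followed there. In the HP1alpha knock-down it stood at 0.38 with an interval from 0.13 to 0.70, on 5 inclusion and 3 skipping reads, and in the HP1beta knock-down at 0.36 (0.13 to 0.69), on 5 and 4. Of the 190 Ddias reads in the HP1alpha knock-down 180 fitted neither isoform, and 131 of 140 in the HP1beta knock-down. Between TKO and WT the corresponding shares were alike, 43.1% in TKO and 45.2% in WT. Such reads were also a larger share in the knock-downs for other exons. For the 220-nt exon of Usp1 they were 54.6% to 59%, against 17.5% in TKO and 17.2% in WT. For the 183-nt exon of Ccnb1 they were 60.5% to 68.5%, against 15% in TKO and 9.81% in WT.

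Trp53bp1 held exons of 3 kinds. The 60-nt, 138-nt and 141-nt exons were mostly skipped in each library that listed them, at levels of 0.00 to 0.01, 0.02 to 0.05 and 0.02 to 0.09. The 505-nt exon was mostly included, at 0.90 to 0.96 in the knock-downs and 0.86 in both TKO and WT, with 0 skipping reads in each of the 7 libraries. The 91-nt exon stood at 0.82 to 0.97 in the 4 WT knock-downs and 1.00 in TKO and WT, with 1 skipping read in the HP1gamma knock-down and 0 elsewhere, and was not listed in the TKO triple knock-down. The 150-nt exon stood at 0.85 in the TKO triple knock-down, 0.86 in the WT triple knock-down and 0.89, 0.91 and 0.87 in the knock-downs of HP1alpha, HP1beta and HP1gamma, against 0.97 in both TKO and WT. Its skipping reads numbered 15, 13, 18, 14 and 17 in those knock-downs, against 0 in TKO and 2 in WT, beside 212 to 421 inclusion reads per library. Skipping of the 150-nt exon was thus read in all 5 knock-down libraries and hardly in the untransfected ones. Over all events, too, skipping reads made up a larger share in each knock-down library than in the untransfected ones. They numbered 202185 beside 650328 inclusion reads in the WT triple knock-down, and 481848 beside 3009850 in WT. Knock-down, transfection and platform cannot be told apart in this difference.

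The 120-nt exon of Trp53bp1 had a higher level in the knock-downs that its distinguishing reads did not share. It stood at 0.81 (0.71 to 0.89) in the TKO triple knock-down, 0.87 (0.76 to 0.95) in the WT triple knock-down and 0.92, 0.89 and 0.91 in the knock-downs of HP1alpha, HP1beta and HP1gamma, against 0.27 (0.23 to 0.32) in TKO and 0.29 (0.24 to 0.35) in WT. Reads for inclusion and skipping numbered 87 and 7 in the TKO triple knock-down, 74 and 3 in the WT triple knock-down, 203 and 2, 170 and 5, and 114 and 1 in the knock-downs of HP1alpha, HP1beta and HP1gamma, against 119 and 0 in TKO and 110 and 0 in WT. All reads that tell the isoforms apart in TKO and WT were therefore for inclusion, while the deposited level was below 0.3. Reads that fit both isoforms numbered 496 to 1156 in the knock-downs, against 5616 in TKO and 4895 in WT. Per 100 such reads there were 13.9 to 20.2 inclusion reads in the knock-downs, against 2.12 in TKO and 2.25 in WT.

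The deposited level of Depdc1a was lower in the knock-downs, with the TKO triple knock-down nearest to the untransfected level. It was called lower in each WT knock-down against WT and was not called in the TKO triple knock-down against TKO (adjusted p = 0.0623, Fisher's exact test). The log2 odds ratios of its reads, triple knock-down against untransfected cells, were -5.33 in TKO cells and -5.03 in WT cells. A constant was added to every count for these ratios. The TKO value rests on 2 skipping reads against 0, so how alike the lines were cannot be judged from it. The 831-nt exon stood at 0.73 (0.52 to 0.90) in the TKO triple knock-down, 0.22 (0.14 to 0.32) in the WT triple knock-down and 0.40, 0.27 and 0.47 in the knock-downs of HP1alpha, HP1beta and HP1gamma, against 1.00 (0.99 to 1.00) in TKO and 0.99 (0.97 to 0.99) in WT. Inclusion and skipping reads numbered 122 and 2 in the TKO triple knock-down, 74 and 14 in the WT triple knock-down and 201 and 17, 123 and 20, and 149 and 12 in the knock-downs of HP1alpha, HP1beta and HP1gamma, against 983 and 0 in TKO and 921 and 5 in WT. Skipping reads were thus few in the TKO triple knock-down and made up a larger share in each WT knock-down. As a share of distinguishing reads, inclusion was 98.4% in the TKO triple knock-down, 84.1% in the WT triple knock-down and 86% to 92.5% in the single knock-downs, against 100% in TKO and 99.5% in WT. For an exon of this length the level and the read share lay far apart, the level in the WT triple knock-down being 0.22.

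Both Ccnb1 exons had lower levels in the knock-downs. The 111-nt exon stood at 0.05 (0.04 to 0.07) in the TKO triple knock-down, 0.07 (0.04 to 0.11) in the WT triple knock-down and 0.10, 0.08 and 0.08 in the knock-downs of HP1alpha, HP1beta and HP1gamma, against 0.99 (0.99 to 1.00) in TKO and 1.00 (0.99 to 1.00) in WT. Among distinguishing reads inclusion nevertheless stayed in the majority, at 88.9% in the TKO triple knock-down, 90% in the WT triple knock-down and 78.1% to 97.3% in the single knock-downs, against 99.7% in TKO and 99.8% in WT. These shares rest on 20 to 73 distinguishing reads in the knock-downs, against 1337 in TKO and 1763 in WT. Reads that fit both isoforms numbered 2225 to 4830 in the knock-downs, against 6434 in TKO and 7293 in WT. Per 100 such reads there were 0.663 to 1.36 inclusion reads in the knock-downs, against 20.7 in TKO and 24.1 in WT, the opposite order to the 120-nt exon of Trp53bp1.

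The 183-nt exon of Ccnb1 stood at 0.48 (0.39 to 0.59) in the TKO triple knock-down, 0.50 (0.40 to 0.61) in the WT triple knock-down and 0.40 to 0.43 in the single knock-downs, against 0.67 (0.65 to 0.69) in TKO and 0.71 (0.70 to 0.73) in WT. Inclusion was 91.2% to 95.5% of distinguishing reads in the knock-downs, against 100% in TKO (2984 and 0 reads) and 98.4% in WT (4369 and 70). The gene-name table also lists a copy of the cyclin B1 gene, Ccnb1-ps, and how alike the sequences are was not examined here. How the alignment divided reads between the copies was not given in the sources used here, so levels and reads of both Ccnb1 exons are uncertain.

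**Figure D2:**
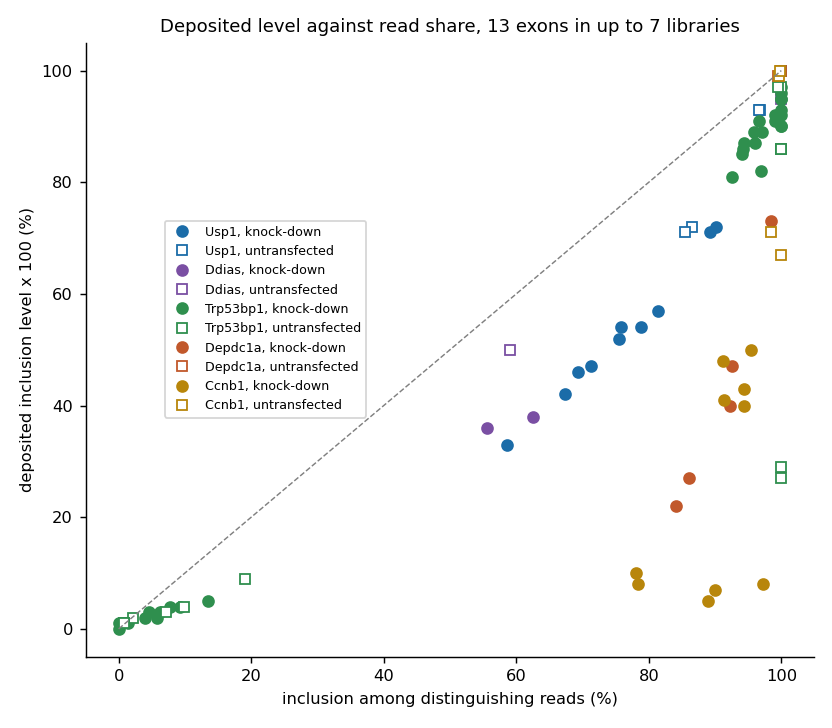
Deposited inclusion level times 100 (vertical axis, %) against inclusion among distinguishing reads (horizontal axis, %) for the 13 exons, 1 point per exon and library, filled for knock-down and open for untransfected libraries, with a dashed line of equality. The 120-nt exon of Trp53bp1 in TKO and WT (levels 0.27 and 0.29 at 100%) and the 111-nt exon of Ccnb1 in the knock-downs (0.05 to 0.10 at 78.1% to 97.3%) lie far below the line.

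**Figure D3:**
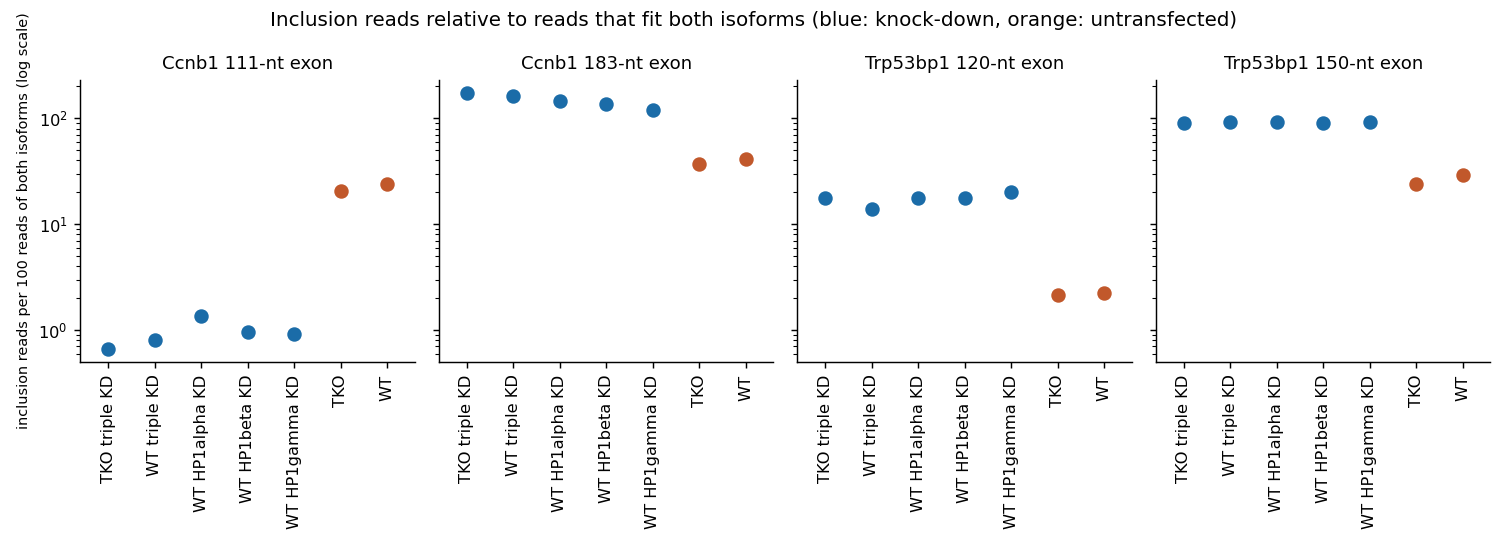
Inclusion reads per 100 reads that fit both isoforms (vertical axis, log scale) for 2 exons of Ccnb1 and 2 of Trp53bp1 in the 7 pooled libraries, blue for knock-down and orange for untransfected. The 111-nt exon of Ccnb1 stood lower in the knock-downs (0.663 to 1.36) than in TKO (20.7) and WT (24.1), and the other 3 exons stood higher.

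Calls across the 13 exons were counted for TKO against WT first. Of 13 exons tested 2 were called higher in TKO, both of Usp1, and 1 lower, that of Ddias, and 10 were not called, where 4.57% of all tested exons were called, 3.18% higher and 1.39% lower. The genes were partly chosen on this contrast, so nothing is read from the share. The median absolute difference in level was 0.01 over the 13 exons and 0.02 over all tested exons. Beside Usp1 and Ddias no exon of the set differed by more than 0.05. Under the triple knock-down 10 exons were tested between TKO and WT cells, and the 220-nt exon of Usp1 and the exon of Depdc1a were called higher in TKO cells, where 0.469% of all tested exons were called and 0.246% were called higher. Levels of Depdc1a under the triple knock-down differed by 0.51 between TKO and WT cells, against 0.01 between the untransfected lines. The triple knock-down libraries used different siRNA doses in the lines, so dose and line cannot be told apart. Nothing is read from the share called under the triple knock-down either, given how the genes were chosen.

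Against untransfected WT cells, the WT triple knock-down had 0 exons called higher and 5 lower of 11 tested, where 11.2% of all tested exons were called and 9.37% were called lower. The 5 were both Usp1 exons, the 150-nt exon of Trp53bp1, Depdc1a and the 111-nt exon of Ccnb1. The HP1alpha and HP1beta knock-downs had 5 of 12 called lower each, where 11.8% of all tested exons were called in either comparison, 10.2% lower for HP1alpha and 9.91% lower for HP1beta. Those 5 were the Usp1 exons, Depdc1a and both Ccnb1 exons in each of these 2 comparisons. The HP1gamma knock-down had 3 of 11 called lower, where 11.4% of all tested exons were called and 9.84% were called lower. They were the 150-nt exon of Trp53bp1, Depdc1a and the 183-nt exon of Ccnb1. These 4 comparisons share the WT library and are not independent of each other. The genes were chosen with differences in these libraries known, so nothing is read from the shares called in them. When the odds ratio taken as no change was that of exons of like length, 2 exons were called in the WT triple knock-down, Depdc1a and the 111-nt exon of Ccnb1, where 7.93% of all tested exons were called. Both Usp1 exons and the 150-nt exon of Trp53bp1 were then no longer called. In the same setting both Usp1 exons also lost their calls for HP1alpha, where 2 exons were called against 9.14% of all tested exons, and for HP1beta, where 3 were called against 8.7%. With the share of reads in place of the level 0 of 11 exons were called for HP1gamma, against 10.6% of all tested exons, since none of its 3 called exons differed by 0.1 in that share. In the WT triple knock-down that measure took the calls from the 150-nt exon of Trp53bp1 (-0.052) and the 111-nt exon of Ccnb1 (-0.098). The latter had 18 inclusion and 2 skipping reads there.

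In TKO cells the triple knock-down was compared with untransfected TKO cells. These 2 libraries are absent from the 4 comparisons of WT knock-downs with WT. The untransfected TKO library also enters the comparison of TKO with WT, and the TKO triple knock-down that with the WT triple knock-down. Knock-down, transfection and platform cannot be told apart in this comparison either. Of 10 exons tested 1 was called higher and 3 lower, where 12.3% of all tested exons were called, 1.31% higher and 10.9% lower. Nothing is read from this share, because the genes were chosen with differences in these libraries known. The 3 called lower were the 150-nt exon of Trp53bp1, with a difference of -0.12 (adjusted p = 1.43e-05, Fisher's exact test), and the exons of Ccnb1, with a difference of -0.19 for the 183-nt exon and -0.94 for the 111-nt exon. The 1 called higher was the 120-nt exon of Trp53bp1, whose level differed by 0.54 while its inclusion reads fell by 7.45 percentage points, so the level and the test of reads went in opposite directions. With the share of reads in place of the level 1 of the 10 exons was called, the 111-nt exon of Ccnb1, where 11.5% of all tested exons were called. Opposite directions were seen at 11.2% of the exons with a level difference of at least 0.1 in this comparison and at 12.4% for the WT triple knock-down against WT. Among called exons alone, as the 120-nt exon of Trp53bp1 was here, they were seen at 4.09% and 4.67%.

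**Figure D4:**
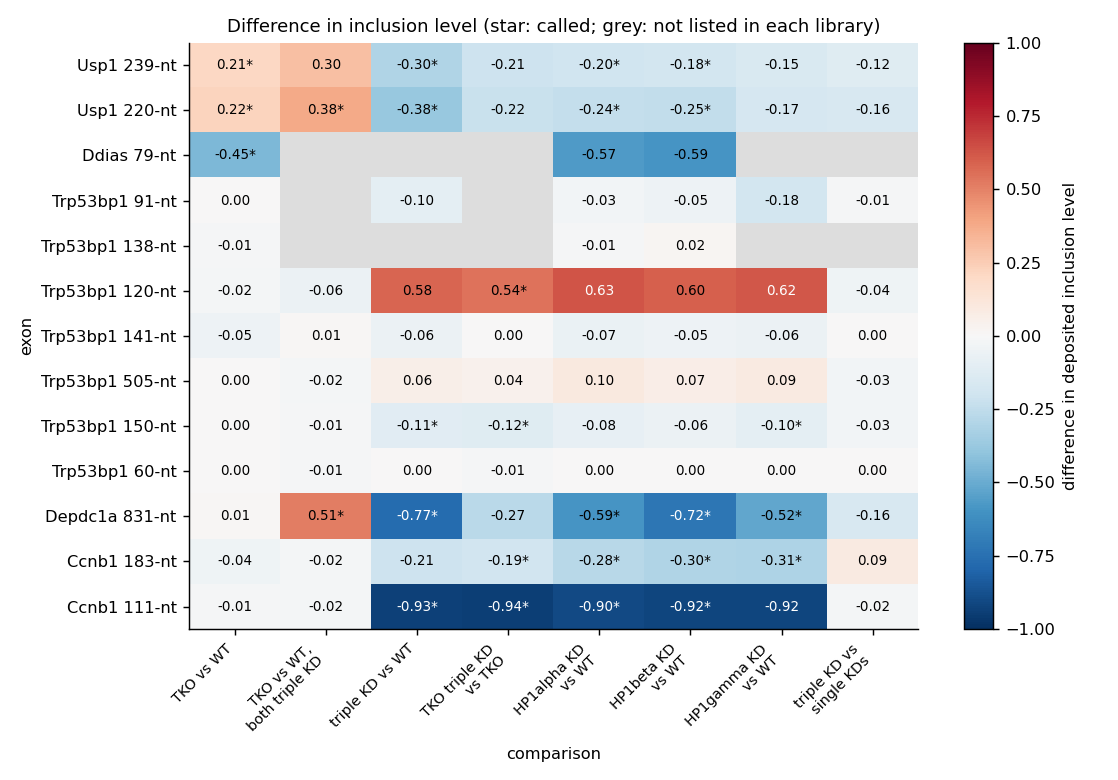
Difference in deposited inclusion level (colour and printed value, first library minus second) of the 13 exons (rows) in 8 comparisons (columns), with a star where the exon was called and grey where it was not listed in each library. Usp1 was higher in TKO than in WT cells in both columns of that contrast, and the columns of knock-downs against untransfected cells show lower Usp1, Depdc1a and Ccnb1 levels and a higher level of the 120-nt exon of Trp53bp1.

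The WT triple knock-down was set against the 3 single knock-downs together, all libraries of 1 platform and all of transfected WT cells. None of 11 exons was called by Fisher's exact test, where 0.043% of all tested exons were called, and 1 had an unadjusted p under 0.05. That was the 220-nt exon of Usp1, at 0.33 in the triple knock-down against a mean level of 0.49 in the single knock-downs, with unadjusted p = 0.031 and adjusted p = 1 in the exact test. Depdc1a stood at 0.22 in the triple knock-down against 0.38, on 74 inclusion and 14 skipping reads against 473 and 49. The single knock-downs had overlapping intervals for Depdc1a (0.31 to 0.52 for HP1alpha, 0.19 to 0.37 for HP1beta and 0.34 to 0.62 for HP1gamma).

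Whether the triple knock-down went with different odds ratios in TKO and WT cells was tested by Zelen's exact test. Of 10 exons tested 1 was called, where 2.69% of all tested exons were called. It was the 183-nt exon of Ccnb1, with adjusted p = 6.59e-07 (exact test), and it had 135 inclusion and 13 skipping reads in the TKO triple knock-down against 2984 and 0 in TKO, and 127 and 6 in the WT triple knock-down against 4369 and 70 in WT. In the deposited level the difference was -0.19 in TKO cells and -0.21 in WT cells. Ccnb1 was chosen with the contrast of the WT triple knock-down and WT known, so this p is not independent of the choice. The exons of Usp1 and Depdc1a had adjusted p = 1 in Zelen's exact test, although their levels differed by -0.22 and -0.27 in TKO cells and by -0.38 (220-nt exon) and -0.77 in WT cells. Log2 odds ratios, with a constant added to every count, were -1.88 in TKO cells and -2.05 in WT cells for the 220-nt exon of Usp1. They were -5.33 and -5.03 for Depdc1a, the TKO value resting on 2 skipping reads against 0. A p above the threshold does not show that the odds ratios were equal.

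Event reads per gene were read from the event of each described exon, in RPM. Usp1 had 28.9 RPM (exact Poisson 95% interval 25.2 to 33) in the TKO triple knock-down and 63.3 RPM (56.3 to 70.9) in the WT triple knock-down, and 67.2 RPM (64 to 70.5) in TKO and 104 RPM (99.8 to 108) in WT. Usp1 event reads were thus lower in TKO than in WT cells on both platforms, at ratios of 0.457 and 0.648, beside its higher inclusion there. Ddias had 33 RPM (30.8 to 35.3) in TKO and 21.7 RPM (19.9 to 23.5) in WT, a ratio of 1.52 beside its lower inclusion. Depdc1a had 19 RPM (16 to 22.4) in the TKO triple knock-down and 26.9 RPM (22.4 to 32.1) in the WT triple knock-down, and 48.3 RPM in TKO and 44.8 RPM in WT. Ccnb1 had 677 RPM in the TKO triple knock-down and 517 RPM in the WT triple knock-down, and 320 RPM in TKO and 366 RPM in WT. Trp53bp1 had 89.8 RPM in the TKO triple knock-down and 151 RPM in the WT triple knock-down, and 234 RPM in TKO and 198 RPM in WT. In bulk RNA fewer cells that express a gene and less RNA per cell cannot be told apart, and event reads are compared only within a platform.

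Exons of other genes were matched to each described exon by the root mean square difference of the level over the 7 libraries, as a description. Nearest to the 220-nt exon of Usp1 were exons of Epb41l3 (0.074) and Tacc2 (0.077). Nearest to the 120-nt exon of Trp53bp1 were exons of Bclaf3 (0.066), Ewsr1 (0.066) and 1110059E24Rik (0.067). The exon of Depdc1a had no near match, with Gm21992 (0.120), Dlg1 (0.129) and Platr20 (0.130) at the top. The 111-nt exon of Ccnb1 was matched most closely, by exons of Cnot1 (0.025), Tpt1 (0.030) and Zfp207 (0.031). Ddias was listed in 4 libraries and was not matched, the minimum being 5.

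Other genes of DNA repair and the damage response were read from a list of 168 genes without the 5 genes above. Of their 165 exons tested 3 were higher in TKO than in WT and 1 was lower (2.42%), against 4.57% of all tested exons. Mdm4, a p53 inhibitor, had a 39-nt exon at 0.68 (0.63 to 0.73) in TKO and 0.38 (0.33 to 0.44) in WT (adjusted p = 5.28e-10, Fisher's exact test). Dclre1b, a nuclease that protects telomeres, stood at 0.98 in TKO and 0.81 in WT, and Ercc8, of transcription-coupled repair, at 0.07 in TKO and 0.22 in WT. In the WT triple knock-down 0 of 96 exons were higher and 6 lower than in WT (6.25%), against 11.2% of all tested exons. Mdm2, the ubiquitin ligase of p53, stood at 0.49 in the knock-down and 0.87 in WT, Alkbh3, a demethylase of alkylated bases, at 0.64 in the knock-down and 0.89 in WT, and Xpa, of nucleotide excision repair, at 0.02 in the knock-down and 0.18 in WT. Inclusion and skipping reads of these 3 exons were few in the knock-down, at 37 and 4, 31 and 7, and 2 and 25. In WT they were 304 and 2, 136 and 5, and 33 and 46. Median absolute differences over the list were 0.01 between TKO and WT and 0.045 between the knock-down and WT, against 0.02 and 0.06 over all tested exons.

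A list of 178 genes of the cell cycle and mitosis, again without the 5 genes, was read in the same way. Of 119 exons tested 2 were higher in TKO than in WT and 1 was lower (2.52%), against 4.57% of all tested exons. Btrc, a substrate receptor of the SCF ubiquitin ligase, stood at 0.53 (0.41 to 0.66) in TKO and 0.91 (0.73 to 1.00) in WT (adjusted p = 0.00153, Fisher's exact test). The kinase gene Cdk2 stood at 0.61 in TKO and 0.50 in WT, and Foxm1, a transcription factor of mitotic genes, at 0.92 in TKO and 0.82 in WT. In the WT triple knock-down 0 of 89 exons were higher and 11 lower than in WT (12.4%), against 11.2% of all tested exons. Kif20b, a kinesin of cell division, stood at 0.54 in the knock-down and 0.85 in WT, Mis12, of the kinetochore, at 0.73 in the knock-down and 1.00 in WT, and Nuf2, of the kinetochore's Ndc80 complex, at 0.48 in the knock-down and 0.71 in WT. The Cdk2 exon stood at 0.24 (0.18 to 0.30) in the knock-down and 0.50 (0.45 to 0.55) in WT, so that it was higher in TKO and lower in the triple knock-down, 2 comparisons that share the WT library. Median absolute differences over this list were 0.01 between TKO and WT and 0.03 between the knock-down and WT.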

How the data were processed

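Per the submitters' processing notes, reads were processed with TopHat2 and Bowtie2 on mm10; versions, the MISO event annotation and the interval level were not given in the sources used here. As deposited, per the file headers, the values are MISO summaries of skipped exons, with the inclusion level as a fraction (0 to 1) and counts of reads per isoform class. Per the labels, the authors pooled the replicates of a group into 1 summary. Libraries were joined by event coordinates, and gene spans were read from RefSeq genes of GRCm38.p6.

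The inclusion-only and skipping-only reads were tested as described above (Python 3.11.15, scipy 1.17.1), with each test using only the libraries compared. For the single knock-downs together, reads were summed and levels averaged. The tests were tried on simulated data with known changes.

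The genes, gene lists and tests were chosen with earlier results of these data known. Described were the 4 exons of the selection rule, the Ccnb1 exon with most reads, and from each of 2 gene lists the 4 largest called differences, 1 per gene, with the 3 nearest exons by level, of which 1 is not reported here. Bisulfite and MNase samples were not analysed here. Exon sequences were not analysed here.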

Additional observations from a re-analysis of the deposited data

Results flagged for a closer look

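The 183-nt exon of Ccnb1, the gene of cyclin B1, stood out because the odds ratio of its reads between the triple knock-down and untransfected cells differed between TKO and WT cells. Knock-down, transfection and platform cannot be told apart in these ratios. Zelen's exact test for unequal odds ratios gave adjusted p = 6.59e-07, 1 of 10 tested exons of the set, where 2.69% of all tested exons were called. Inclusion and skipping reads were 135 and 13 in the TKO triple knock-down against 2984 and 0 in TKO, and 127 and 6 in the WT triple knock-down against 4369 and 70 in WT. Between the triple knock-down libraries the reads gave adjusted p = 1 (unadjusted 0.234), and between untransfected TKO and WT adjusted p = 4.09e-14, both by Fisher's exact test. The deposited level differed by -0.19 in TKO cells and -0.21 in WT cells. Ccnb1 was chosen with the contrast of the WT triple knock-down and WT known, and how reads of its copy Ccnb1-ps bear on these values was not tested.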

How the results depend on the processing

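No paired analysis was possible because the authors pooled the replicates before deposit, and for the same reason no replicate could be left out. Of 433 values under alternatives, over 90 pairs of an exon and a comparison, 393 kept their side of the threshold without reversing. A difference that fell to 0 counted among them. Of the others 12 became called, 20 were no longer called and 8 reversed. Most pairs were not called to begin with and had no call to lose. The lost calls came from the share of reads (10) and from exons of like length (10). The 120-nt exon of Trp53bp1 in TKO cells reversed and also lost its call. With the share of inclusion among distinguishing reads in place of the level, called exons numbered 3 of 11 for the WT triple knock-down against WT. They numbered 1 of 10 for the TKO triple knock-down against TKO, where 11.5% of all tested exons were called. For HP1gamma against WT they numbered 0 of 11, where 10.6% of all tested exons were called. They numbered 3 of 12 for HP1alpha against WT and 8 of 165 for the DNA repair list in TKO against WT. For the WT triple knock-down, HP1alpha and TKO against WT the share over all tested exons with this measure is not reported here. Nothing is read from those counts. The 8 reversals also came from that measure. They were the 120-nt exon of Trp53bp1 in the WT triple knock-down (-0.039), the TKO triple knock-down (-0.074) and the HP1alpha, HP1beta and HP1gamma knock-downs (-0.010, -0.029 and -0.009), the 183-nt exon of Ccnb1 in TKO against WT (0.016), and the 91-nt exon of Trp53bp1 (0.005) and the 111-nt exon of Ccnb1 (0.074) in the triple against the single knock-downs. When exons of like length set the odds ratio taken as no change, counts were 2 of 11 for the WT triple knock-down, 2 of 12 for HP1alpha and 3 of 12 for HP1beta against WT. Of all tested exons 7.93%, 9.14% and 8.7% were called in these comparisons. In the WT triple knock-down 2 of 96 exons of the repair list and 4 of 89 of the cell cycle list were called. With deposited intervals apart and no read test, counts were 7 of 10 for the TKO triple knock-down, 6 of 11 for HP1gamma and 14 of 96 for the repair list in the WT triple knock-down. The share over all tested exons in that setting is not reported here, so nothing is read from these counts. A minimum of 50 reads left 2 calls in the repair list in the WT triple knock-down, of 58 exons tested. The named exons of Mdm2, Alkbh3 and Xpa had fewer distinguishing reads than that minimum in the knock-down and were not tested there. The cause of these changes was not tested. Ddias had 8 and 9 distinguishing reads of 190 and 140 in the HP1alpha and HP1beta knock-downs, under the minimum of 20, and most of its other reads there fitted neither isoform.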
